A study of Mus musculus with 10 samples.

Results

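UDP-glucuronosyltransferases (UGTs) were followed in the fetal liver of Mir483Pat-KO mice through 9 genes of 55401 in the count table. These were Ugt1a1, Ugt1a6a and Ugt1a9 of the Ugt1a locus on chromosome 1, and Ugt2b1, Ugt2b5, Ugt2b34, Ugt2b35, Ugt2b36 and Ugt2a3 of the Ugt2 cluster on chromosome 5. They were taken by Ensembl identifier, and 8 of the 9 had enough counts to be tested. Ugt1a1 had already been seen to differ between the same libraries when the genes were chosen, so differences of the members between genotypes are given as a description and nothing is supported by them. Their p-values are not printed, and whether a member passed the threshold of the fit over all genes is stated only to describe it.

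UGTs are enzymes of the endoplasmic reticulum that join glucuronic acid, taken from UDP-glucuronic acid, to bilirubin, steroids, bile acids and drugs, which makes these water-soluble for excretion into bile or urine. Ugt1a1 encodes the enzyme that conjugates bilirubin, and loss of its human counterpart causes Crigler-Najjar syndrome. Ugt1a genes are built in an unusual way, in that each has a first exon and promoter of its own and all are spliced to the same downstream exons, whereas the Ugt2b genes are separate tandem copies. UGT activity towards bilirubin is low in the fetus and rises around birth.

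RNA was taken from whole livers of female fetuses at E18.5, shortly before birth, of which 5 carried a deletion of Mir483 that came from the father (Mir483Pat-KO) and 5 were wild-type (WT) littermates. The deletion is constitutive, thus present in all cells. It was made in JM8.F6 embryonic stem cells of C57BL/6N origin, from which independent clones were used, and the colony was kept on C57BL/6J. PolyA RNA of each fetus was sequenced as 1 library.

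Libraries held between 10831350 and 14765880 counts, and all pairs of libraries of a group differed beyond sampling noise. Mir483 had 11, 10, 22, 21 and 12 counts in WT replicates 1 to 5 and 0 in each Mir483Pat-KO library, where a count of 0 allows up to 3 counts. The identification numbers in the labels form a lower and an upper range. In the lower one were 4 WT and 2 Mir483Pat-KO samples, and 1 WT and 3 Mir483Pat-KO samples were in the upper one. Index numbers were 53 to 57 in WT and 60 to 64 in Mir483Pat-KO, so index order and genotype cannot be told apart. The labelled tissue had its defining markers, with albumin (Alb) at 101281 to 133394 CPM (counts relative to library size, scaled by TMM) in all 10 libraries.

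The structure of the Ugt1a locus decides what a count for one of its genes can hold. Ugt1a1 (ENSMUSG00000089960) lies on the plus strand of chromosome 1 from 88211959 to 88218997 (GRCm38). Its exon 1 (88211959 to 88212871, 913 bp, of which 870 are coding) overlaps no other gene on the same strand. Its exons 2 to 5 begin at 88215044, 88215795, 88216138 and 88218127 and are shared by 9 genes, so that 58.9% of the exonic bases of Ugt1a1 are common property of the locus. The junctions of the 3 Ugt1a members are shown because they mark where the private part of each transcript ends. The last 30 bases of exon 1 are in lower case and the first 30 bases of the shared exon 2 are in capitals (5′ to 3′, plus strand, GRCm38, GENCODE transcripts).
Ugt1a1: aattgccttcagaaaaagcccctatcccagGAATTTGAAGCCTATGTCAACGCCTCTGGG
Ugt1a6a: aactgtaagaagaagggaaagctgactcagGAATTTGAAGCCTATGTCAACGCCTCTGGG
Ugt1a9: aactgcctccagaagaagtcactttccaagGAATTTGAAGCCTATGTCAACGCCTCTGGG

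The capitals are the same in all 3, whereas the exon 1 ends differ. Over the coding bases of exon 1, Ugt1a1 and Ugt1a6a were 57.1% identical, and over the whole coding sequence they were 76.4% identical. A read from exons 2 to 5 cannot be traced to a gene of the locus, and how such reads were counted is not given in the sources used here. Ugt1a8, which has the same 4 downstream exons, had 0 counts in all 10 libraries, so reads of the shared exons were not added to every gene that holds them. None of the 864 windows of 50 bases in exon 1 of Ugt1a1 was found in a transcript of another place in the genome, and its counts are therefore separable from those of its neighbours if they come from exon 1. Gm20528, an antisense gene, covers 528 of the 913 bases of that exon on the opposite strand. It had 9, 20, 20, 12 and 11 counts in WT and 6, 19, 19, 4 and 3 in Mir483Pat-KO libraries. The kit marks strand, but the strand setting of the counting is not given, and the part of Gm20528 in the Ugt1a1 value was not tested.

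Ugt1a1 was lower in Mir483Pat-KO livers, where the fitted level was 0.342 times that of WT. WT replicates 1 to 5 had 61.1, 36.3, 79.5, 56.8 and 56.8 CPM. Mir483Pat-KO replicates 1 to 5 had 33.3, 16.3, 25.7, 11.9 and 12.2 CPM. The groups did not overlap, but they came close, since Mir483Pat-KO replicate 1 was the highest of its group and WT replicate 2 the lowest of its own. Means were 58.1 CPM ± 15.4 for WT and 19.9 CPM ± 9.35 for Mir483Pat-KO (SD, n = 5 per group, log2 fold change −1.55, SE 0.247). In bulk tissue, fewer cells of a type and less RNA per cell cannot be told apart.

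Of the 8 members tested, Ugt1a1 was the only one that passed an adjusted p of 0.05 in the lower direction and Ugt2b36 the only one in the higher direction (edgeR quasi-likelihood test, adjusted over 14098 genes). Over all genes tested, 2.76% passed lower and 2.43% higher. Both also exceeded a fold change of 1.5, which 0.872% of genes did in the lower and 0.355% in the higher direction. Complete separation of the groups, as for Ugt1a1, was seen in 3.26% of genes in that direction. The contrast had a part in the choice of the members, so nothing is read from these counts. The median log2 fold change of the 8 was 0.011, against 0.0042 over all genes tested.

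**Figure D1:**
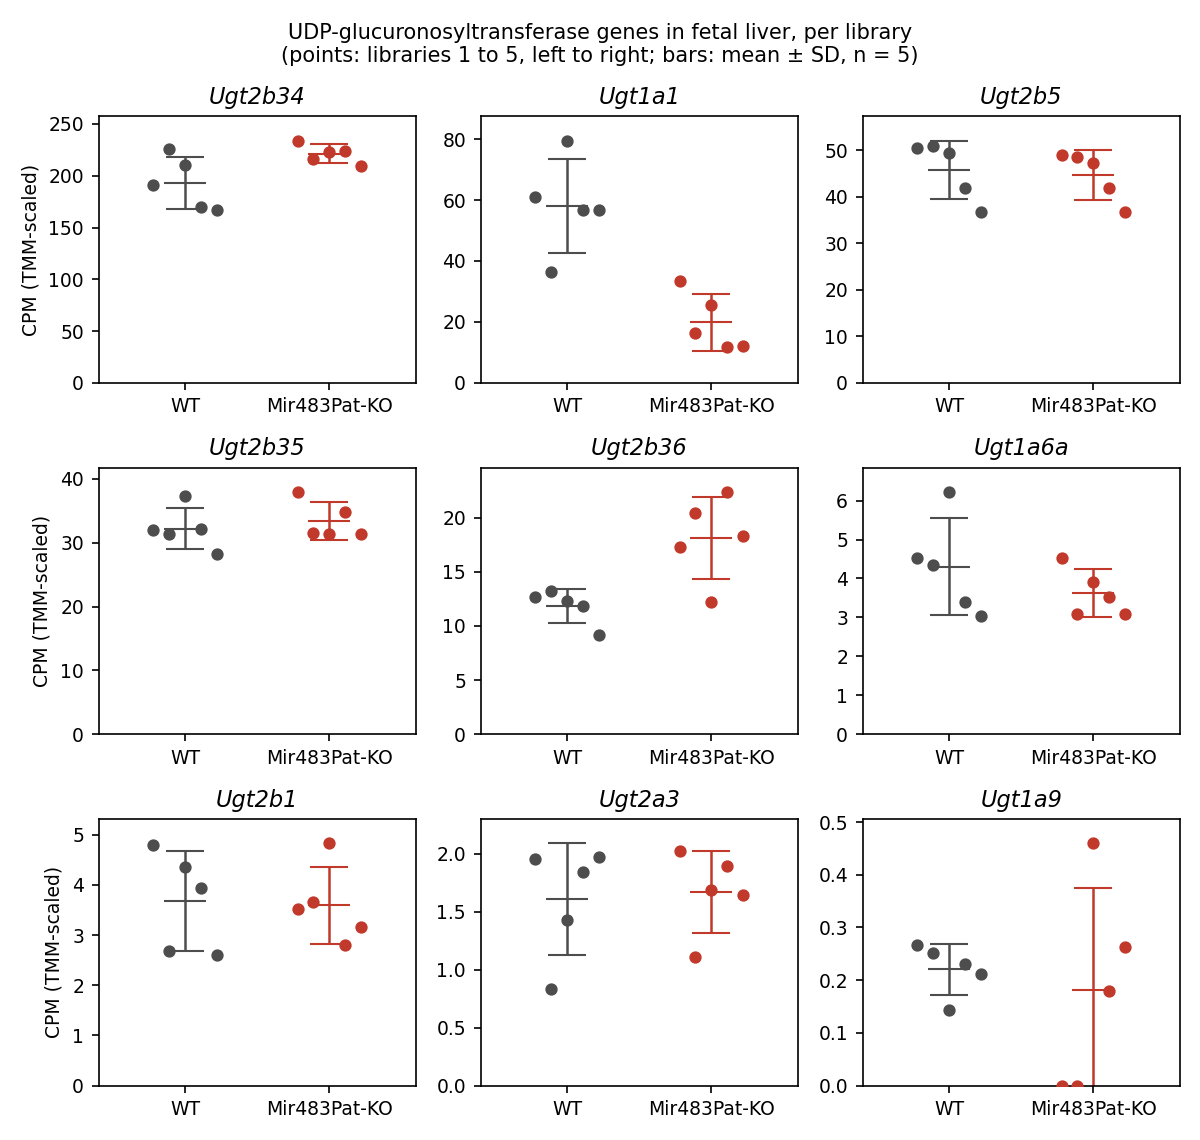
Expression of the 9 members in each library, in CPM on linear axes that start at 0, with WT in grey and Mir483Pat-KO in red; points are libraries 1 to 5 from left to right and bars are the mean ± SD (n = 5). Ugt1a1 separates the groups, with WT at 36.3 CPM or more and Mir483Pat-KO at 33.3 CPM or less, and the groups overlap in the other 8 panels.

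WT livers themselves varied in Ugt1a1. Its coefficient of variation over the 5 WT libraries was 26.5%, against a median of 8.35% among 4020 genes within 2-fold of its level, of which 98.7% varied less. The difference between genotypes was present in both identification number ranges. In the lower range, the 4 WT libraries had a mean of 58.4 CPM and the 2 Mir483Pat-KO libraries had 33.3 and 16.3 CPM, a log2 fold change of −1.24 that did not pass on its own. In the upper range, the WT library had 56.8 CPM and the 3 Mir483Pat-KO libraries had 11.9 to 25.7 CPM, and that range by itself was not tested. With the range as a covariate the log2 fold change was −1.44.

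Ugt1a6a and Ugt1a9 stood far below Ugt1a1. Ugt1a6a (ENSMUSG00000054545), whose enzyme conjugates small planar phenols, had 4.53, 4.36, 6.22, 3.39 and 3.03 CPM in WT and 4.53, 3.09, 3.91, 3.52 and 3.09 CPM in Mir483Pat-KO libraries. The groups overlapped almost fully, with a log2 fold change of −0.25 (SE 0.199). Its value is uncertain, because 90% of its exon 1 (88138378 to 88139331) is also annotated as an exon of Ugt1a7c. Its unshared bases lie mostly in transcripts with retained introns, and only 46 windows of 50 bases in its coding transcript are its own. Ugt1a9 (ENSMUSG00000090175) had 2 or 3 counts in each WT library and 0, 0, 6, 2 and 4 counts in Mir483Pat-KO libraries, at or near the floor of 3 counts, and was not tested. Expression of Ugt1a9 was thus not detectable with confidence at this depth.

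Among the other genes of the locus, Ugt1a6b, a near copy of Ugt1a6a (98.4% identical over the coding sequence), was the only one above 2 CPM in the mean. It stood at 11.4 CPM ± 1.29 (WT) and 10.5 CPM ± 1.38 (Mir483Pat-KO) (SD, n = 5), which did not pass (log2 fold change −0.12, edgeR adjusted p = 0.569). Reads can be exchanged between the copies, since 48.3% of the unshared 50-base windows of Ugt1a6b are also found in Ugt1a6a. Ugt1a7c stood at 1.12 CPM ± 0.206 (WT) and 1.48 CPM ± 0.271 (Mir483Pat-KO) (log2 fold change 0.42, edgeR adjusted p = 0.309). Ugt1a2, Ugt1a5 and Ugt1a10 had at most 6 counts in a library.

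All Ugt1a counts of a library were therefore also added up, so that the division of counted reads among the genes of the locus did not matter. Reads of the shared exons that were counted for no gene are missing from this sum. The sum was 75.5 CPM ± 17.0 for WT and 36.2 CPM ± 10.03 for Mir483Pat-KO (SD, n = 5, log2 fold change −1.06, SE 0.168). Without Ugt1a1, the remaining genes added up to 17.4 CPM ± 2.71 and 16.3 CPM ± 1.73, so that the lower sum lay in Ugt1a1 and the rest differed by less than its spread. Ugt1a1 made up 75.9%, 67.7%, 79.3%, 79.2% and 79.6% of the Ugt1a counts in WT and 65.4%, 55.1%, 60.7%, 40.6% and 42.5% in Mir483Pat-KO libraries. All Mir483Pat-KO shares lay below all WT shares. Counts of Ugt1a1 per count of Ugt1a6b, a ratio within a library that needs no scaling, were 5.07 ± 1.16 in WT and 1.91 ± 0.864 in Mir483Pat-KO.

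**Figure D2:**
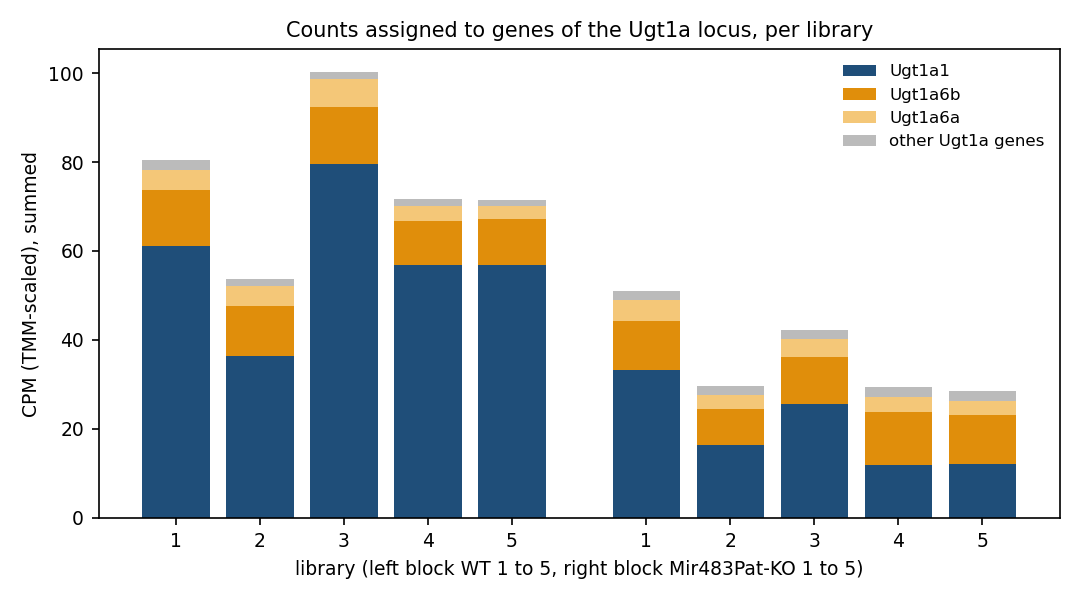
Counts of the Ugt1a locus in each library, in CPM stacked by gene, with WT 1 to 5 on the left and Mir483Pat-KO 1 to 5 on the right. The blue part (Ugt1a1) is lower in Mir483Pat-KO, while the other parts together stay between 13.3 and 20.8 CPM in all 10 libraries.

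Ugt2b36 (ENSMUSG00000070704, chromosome 5, 87065927 to 87092555, minus strand) was higher in Mir483Pat-KO. It belongs to the Ugt2b subfamily, whose enzymes conjugate steroids and bile acids among other substrates. WT replicates 1 to 5 had 12.7, 13.2, 12.3, 11.9 and 9.16 CPM. Mir483Pat-KO replicates 1 to 5 had 17.3, 20.4, 12.3, 22.4 and 18.3 CPM. Of the 5 Mir483Pat-KO libraries, 4 lay above all WT libraries, while replicate 3 lay within their range. Means were 11.9 CPM ± 1.59 and 18.1 CPM ± 3.82 (SD, n = 5, log2 fold change 0.61, SE 0.142). Ugt2b36 no longer passed without WT replicate 5 (0.53), Mir483Pat-KO replicate 2 (0.56) or replicate 4 (0.52), and among lower range libraries alone (0.59). Nor did it pass with offsets for GC content and length (0.44), and its transcript has a GC content of 41.1%, against 47.2% for Ugt1a1.

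Ugt2b34 (ENSMUSG00000029260) was the most abundant member in CPM, with 191, 226, 210, 170 and 167 CPM in WT and 234, 216, 223, 223 and 209 CPM in Mir483Pat-KO libraries. The groups overlapped, and the WT libraries spread more (192.9 CPM ± 25.5) than the Mir483Pat-KO libraries (221.2 CPM ± 9.24, SD, n = 5). Its log2 fold change of 0.20 (SE 0.0831) did not pass and was −0.0024 with offsets for GC content and length.

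The other Ugt2 members had similar levels in both genotypes. Ugt2b5 (ENSMUSG00000054630) had 50.4, 50.9, 49.4, 41.8 and 36.8 CPM in WT and 49.0, 48.6, 47.3, 41.9 and 36.7 CPM in Mir483Pat-KO libraries, which span almost the same range. Its log2 fold change was −0.037 (SE 0.102), although it was −0.25 and passed with offsets for GC content and length. Reads of Ugt2b5 may be shared with Ugt2b38, since 41.7% of its 50-base windows occur in transcripts of other genes. Ugt2b38 and Ugt2b37 had at most 4 counts in a library, and how reads that match several genes were counted is not given.

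Ugt2b35 (ENSMUSG00000035811) ran from 28.3 to 37.3 CPM in WT and from 31.3 to 37.9 CPM in Mir483Pat-KO (log2 fold change 0.051, SE 0.0859). Ugt2b1 (ENSMUSG00000035836), with 2.61 to 4.79 CPM in WT and 2.80 to 4.83 CPM in Mir483Pat-KO, had a log2 fold change of −0.028 (SE 0.205). Ugt2a3 (ENSMUSG00000035780), which is also transcribed in the gut, ran from 0.838 to 1.97 CPM in WT and from 1.11 to 2.03 CPM in Mir483Pat-KO (log2 fold change 0.051, SE 0.255). All 3 pairs of groups overlapped. With 10 to 63 counts in a library, small differences in the last 2 genes were not detectable.

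The Ugt2 genes are close to each other in sequence. Ugt2b36 was 88.4% identical to Ugt2b5 and 88.3% to Ugt2b35 over the coding sequence, and 72.5% to Ugt2b34. Only 0.326% of the 50-base windows of Ugt2b36 were found in another gene, so its counts are separable from those of the gene most like it. Ugt1a1 was 53.3% to 56.2% identical to the Ugt2 members.

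**Figure D3:**
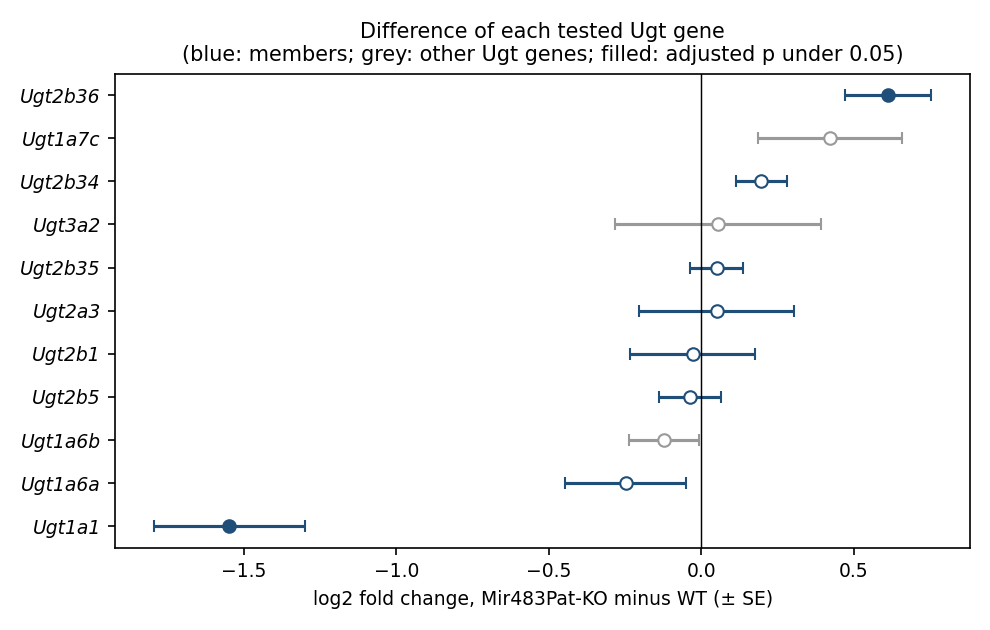
Log2 fold change of each tested Ugt gene, Mir483Pat-KO minus WT, with its SE; members are blue, other Ugt genes grey, and filled points passed an adjusted p of 0.05. Ugt1a1 at −1.55 and Ugt2b36 at 0.61 are filled, and the other 9 genes lie between −0.25 and 0.42.

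Levels of different genes were compared per kilobase of exon not shared with another gene. In WT, Ugt1a1 came first with 63.6 CPM per kb ± 16.9, followed by Ugt2b34 with 44.7 ± 5.91 and Ugt2b5 with 24.7 ± 3.37 CPM per kb (SD, n = 5). Ranges of Ugt1a1 and Ugt2b34 overlapped, and Ugt1a1 was above Ugt2b34 in 4 of 5 WT libraries. Ugt2b35 (9.59 CPM per kb), Ugt2b36 (5.76), Ugt1a6a (2.01), Ugt2b1 (1.43), Ugt2a3 (0.760) and Ugt1a9 (0.251) came next, and of these neighbours the ranges of Ugt1a6a and Ugt2b1 overlapped.

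In Mir483Pat-KO, Ugt2b34 came first with 51.3 CPM per kb ± 2.14, and Ugt1a1 with 21.8 ± 10.2 CPM per kb was below it in all 5 libraries. Ugt1a1 could not be set apart from Ugt2b5 (24.04 CPM per kb ± 2.85), whose range it overlapped. Ugt2b35 and Ugt2b36, separate in WT, overlapped in Mir483Pat-KO (9.94 ± 0.872 and 8.80 ± 1.86 CPM per kb). The places of Ugt1a1 and Ugt1a6a depend on the length used. The length of all exons includes the shared ones, although their reads were not added to every gene that holds them. Per kilobase of all its exons Ugt1a1 had 26.1 CPM per kb in WT, below the 44.7 CPM per kb of Ugt2b34, and 8.94 CPM per kb in Mir483Pat-KO. Ugt1a6a likewise had 0.998 CPM per kb (WT) and 0.841 CPM per kb (Mir483Pat-KO) over all its exons, below Ugt2b1 at 1.43 and 1.39 CPM per kb. All Ugt genes together stood at 370 CPM ± 40.0 (WT) and 366 CPM ± 23.9 (Mir483Pat-KO), of which the Ugt2 genes made up 288 CPM ± 34.0 and 323 CPM ± 15.6 (SD, n = 5).

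**Figure D4:**
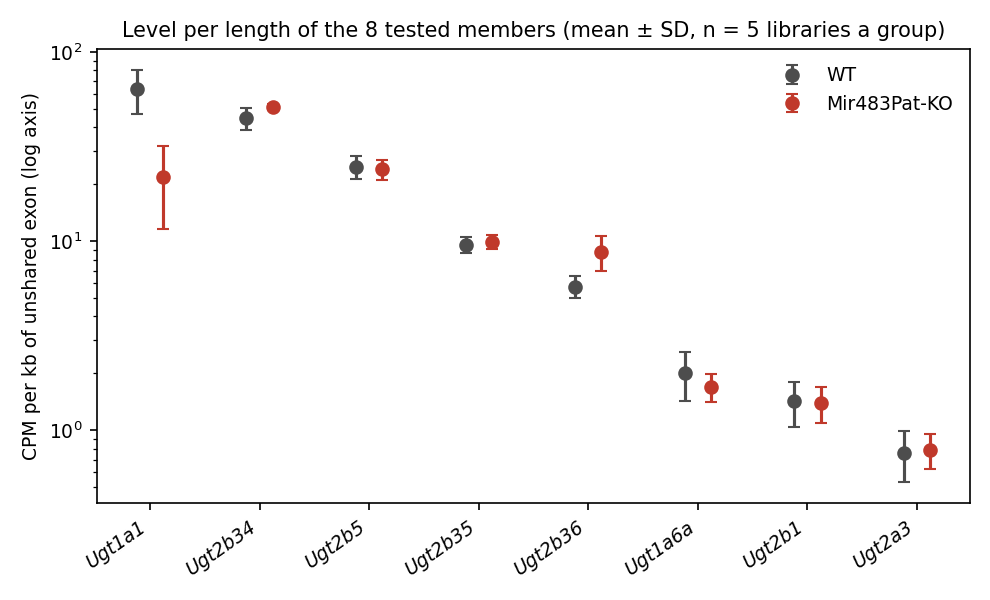
Mean level of the 8 tested members in CPM per kilobase of unshared exon on a log axis, with WT in grey and Mir483Pat-KO in red (bars are the SD, n = 5), ordered by the WT mean. Ugt1a1 stands at 63.6 CPM per kb in WT and at 21.8 CPM per kb in Mir483Pat-KO, where its range overlaps that of Ugt2b5, and over all exons it is below Ugt2b34 in both groups.

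Promoters of Ugt1a1 and Ugt2b36, the members that passed in opposite directions, are shown for comparison. Each is the 250 bases before the annotated start, 5′ to 3′ on the strand of the gene, from RefSeq (GRCm38.p6), with entries for all 9 members. They lie at chr1:88211709-88211958 (plus strand) and chr5:87092556-87092805 (minus strand). Matches to 4 motifs searched on both strands are in capitals.
Ugt1a1: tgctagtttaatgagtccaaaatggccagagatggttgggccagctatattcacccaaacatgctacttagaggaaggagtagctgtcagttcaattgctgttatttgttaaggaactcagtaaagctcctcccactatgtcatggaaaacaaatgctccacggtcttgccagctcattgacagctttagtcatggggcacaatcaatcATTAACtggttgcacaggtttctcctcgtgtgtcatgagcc
Ugt2b36: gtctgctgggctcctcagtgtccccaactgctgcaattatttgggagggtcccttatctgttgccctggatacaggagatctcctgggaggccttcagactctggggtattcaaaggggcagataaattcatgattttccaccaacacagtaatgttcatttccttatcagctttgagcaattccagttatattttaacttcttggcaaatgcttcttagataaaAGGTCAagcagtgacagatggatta

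The motifs were GTTAAT (a site of HNF1 factors), AGGTCA (a site of many nuclear receptors), TGTTTAC (the core of FOXA sites) and TATAAA (the TATA box). Ugt1a1 held GTTAAT on the opposite strand, 41 to 36 bases before the start. Among the other members it was found for Ugt1a6a, Ugt1a9 and Ugt2a3, and in all it was found in 6.52% of 27025 promoters of the same length. For Ugt1a6a the window lies before the gene start at 88134809 and not before its exon 1 at 88138378. Ugt2b36 held AGGTCA 25 to 20 bases before the start, a match found in 13.8% of promoters. Among the other members it was found for Ugt2b5 (22 to 17 bases before the start), Ugt2b35 (215 to 210) and Ugt1a9 (201 to 196). A match is a description of the letters, and these data do not show whether a factor binds there.

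Mature miR-483 sequences are shown because their loss defines the mutant, with bases 2 to 8, the seed, in capitals (RefSeq, GRCm38.p6, minus strand of chromosome 7).
miR-483-3p: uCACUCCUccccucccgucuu
miR-483-5p: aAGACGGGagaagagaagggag

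The complement of the miR-483-3p seed, AGGAGTG, occurred in the longest annotated 3′ UTR of 10.7% of 20998 genes and in that of 1 of the 9 members, Ugt2b35. The complement of the miR-483-5p seed, CCCGTCT, occurred in 2.68% of genes and in none of the 9. Ugt2b35, the member with a site, had a log2 fold change of 0.051. All 3 Ugt1a members have the same 3′ UTR of 573 bp, so a site there would have been common to them.

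Beyond the members, 13 other Ugt genes were in the table, of which 3 were tested and 0 passed with edgeR (0 at an unadjusted p under 0.05), with DESeq2 or with limma-voom. Besides Ugt1a6b and Ugt1a7c, the third was Ugt3a2, with 12.3, 2.35, 3.72, 4.08 and 2.89 CPM in WT and 5.70, 4.36, 5.67, 5.59 and 4.54 CPM in Mir483Pat-KO libraries. WT replicate 1 was more than double any other library, and with it the difference was 0.054 on the log2 scale (edgeR adjusted p = 0.946). Without WT replicate 1 it was 0.65 (edgeR adjusted p = 0.0493). Ugt3a1, named here after its values were seen, had too few counts for the test, with 1, 2, 2, 0 and 2 counts in WT and 3, 6, 7, 8 and 13 in Mir483Pat-KO libraries. Ugt8a ran from 0.468 to 1.34 CPM in the 10 libraries and was not tested. Ugt1a8, Ugt2a1 and Ugt2a2 had 0 counts throughout.

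Genes that act before and after glucuronidation were compared to see whether they differed with the UGTs. For UDP-glucuronate supply, 7 of 8 genes were tested, with a median log2 fold change of 0.053. Of these, 1 passed lower (0 without Mir483Pat-KO replicate 4) and 0 higher, against 2.76% and 2.43% of all genes tested. Ugdh, which makes UDP-glucuronic acid, had a log2 fold change of 0.29 that just failed to pass (36.9 CPM ± 2.40 in WT, 45.1 CPM ± 4.80 in Mir483Pat-KO, SD, n = 5, edgeR adjusted p = 0.0507). On all libraries it passed with DESeq2 (adjusted p = 0.0244), without the count filter (0.0338), with at least 10 counts required in every library (0.0473) and with the range as a covariate (0.0221), but not with limma-voom (0.0560). With edgeR it also passed without WT replicate 2 (0.31, adjusted p = 0.0487) and without Mir483Pat-KO replicate 3 (0.33, adjusted p = 0.0305). Entpd5 did not pass (log2 fold change −0.14, edgeR adjusted p = 0.340).

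For bilirubin formation and transport, 9 of 11 genes were tested and 0 passed with edgeR in either direction, with a median log2 fold change of −0.018. An unadjusted p under 0.05 was reached by 3 of the 9, and 1 passed with DESeq2 and 1 with limma-voom. Abcc2, the canalicular pump that exports bilirubin glucuronides into bile, stood at 299.5 CPM ± 20.7 (WT) and 235 CPM ± 45.7 (Mir483Pat-KO) (log2 fold change −0.35, edgeR adjusted p = 0.0645). It passed without Mir483Pat-KO replicate 1 (−0.47, adjusted p = 0.00582), and on all libraries with DESeq2 (0.0251), limma-voom (0.0497), the offsets (0.0122) and without the count filter (0.00503). Slco1b2, an uptake carrier for bilirubin on the sinusoidal side, had 114.5 CPM ± 36.2 and 74.9 CPM ± 21.98 (log2 fold change −0.61, edgeR adjusted p = 0.0915), and it too passed without that library (−0.74, adjusted p = 0.0487), and on all libraries with the offsets (0.0141) and without the count filter (2.57e-05). Hmox2, a haem oxygenase, did not pass (log2 fold change −0.20, edgeR adjusted p = 0.142). All 3 genes of glucuronide cleavage were tested and 0 passed with edgeR (0 at an unadjusted p under 0.05), DESeq2 or limma-voom. Their log2 fold changes were 0.11 for Abhd10, −0.062 for Ces1e and −0.0012 for Gusb, the beta-glucuronidase (edgeR adjusted p = 0.663, 0.892 and 0.994).

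The list of regulators of Ugt genes holds 18 genes, transcription factors and Keap1, which binds one of them in the cytoplasm. All were tested, 2 passed lower and 0 higher with edgeR, where 2.76% of all genes tested passed lower. With DESeq2 4 and with limma-voom 3 of them passed lower, and 6 passed lower with the identification number range as a covariate, 1 with the offsets, and 0 in the lower range alone or in the test against a fold change of 1.5 (glmTreat). In the other direction, 2 passed higher without the count filter (Nr3c1 at 0.26 and Onecut1 at 0.38), and 2 with the replicate block and without WT replicate 2. A log2 fold change below 0 was measured in 14 of the 18, against 49.1% of all genes tested, and the median was −0.15. Nr1i3, which encodes the constitutive androstane receptor, an activator of Ugt1a1, had 41.5, 32.2, 39.8, 33.7 and 36.6 CPM in WT and 22.9, 14.4, 29.0, 17.3 and 16.9 CPM in Mir483Pat-KO libraries. No Mir483Pat-KO library reached the lowest WT library (log2 fold change −0.87, SE 0.148, edgeR adjusted p = 0.00455). It did not pass in the lower range alone (−0.98, adjusted p = 0.0527) or with glmTreat. Genes on the opposite strand cover 74.9% of the exonic bases of Nr1i3, against 41.5% for Ugt1a1, and since the strand setting of the counting is not given, their part in its value was not tested. Foxa2, a forkhead factor of hepatocytes, fell from 17.7 CPM ± 2.01 to 12.6 CPM ± 1.81 (SD, n = 5, log2 fold change −0.49, edgeR adjusted p = 0.0201), also without overlap. It no longer passed with offsets for GC content and length (−0.37). Hnf4a, the nuclear receptor that maintains hepatocyte gene expression, had 381.7 CPM ± 26.0 and 324 CPM ± 17.1 (log2 fold change −0.24, edgeR adjusted p = 0.0540) and did not pass with edgeR. It passed with DESeq2 (adjusted p = 0.00630), limma-voom (0.0464) and the range as a covariate (0.0421), and with edgeR without WT replicate 1 (0.0461) or Mir483Pat-KO replicate 1 (0.0451). Whether the lower level of any of these factors bears on Ugt1a1 was not tested.

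Targets of regulators on that list other than Ugt genes were measured too. Of 15 xenobiotic receptor targets 9 were tested and 0 passed with edgeR, DESeq2 or limma-voom, with 3 at an unadjusted p under 0.05 (edgeR) and a median log2 fold change of 0.059. They belong to different regulators, so the median does not stand for the targets of any 1 of them. Of the 9, 7 had a log2 fold change above 0 and 2 below. The 2 were Cyp3a13 and Cyp3a11 (−0.24, edgeR adjusted p = 0.249), the latter named after its values were seen. The 3 with the smallest p were Tiparp (0.35, edgeR adjusted p = 0.166), Gclm (0.17, adjusted p = 0.186) and Cyp3a13 (−0.29, adjusted p = 0.211). In this list 1 gene passed lower without the count filter, which was Cyp3a13 (adjusted p = 0.0489), and 2 passed lower with the offsets, Cyp3a13 (−0.42, adjusted p = 0.0310) among them. Cyp2b10, a target of the constitutive androstane receptor in adult liver, named after its values were seen, was near 0 in both groups and was not tested. Cyp2c29, of the same list, had 2, 5, 3, 2 and 4 counts in WT and 2, 0, 0, 0 and 0 in Mir483Pat-KO libraries. Cyp2c55, Cyp1a1, Cyp1a2 and Ahrr had 0, 5, 34 and 36 counts over all WT libraries and 1, 6, 18 and 40 over all Mir483Pat-KO libraries. None of these was tested, and they too were named after their values were seen. Of 16 other conjugating enzymes 11 were tested, 1 passed lower and 0 higher with edgeR and 2 passed with DESeq2, and the median log2 fold change was −0.21. Over all genes tested, 2.76% passed lower and 2.43% higher with edgeR. With edgeR 0 passed when any of 8 libraries was left out (all but WT replicate 2 and Mir483Pat-KO replicate 3). The sulfotransferase Sult1a1 (−0.21, edgeR adjusted p = 0.0730) and Papss2 (−0.21, adjusted p = 0.288), which makes the sulfate donor, did not pass, although Sult1a1 did with DESeq2 (adjusted p = 0.0183) and with the offsets (0.0332).

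**Figure D5:**
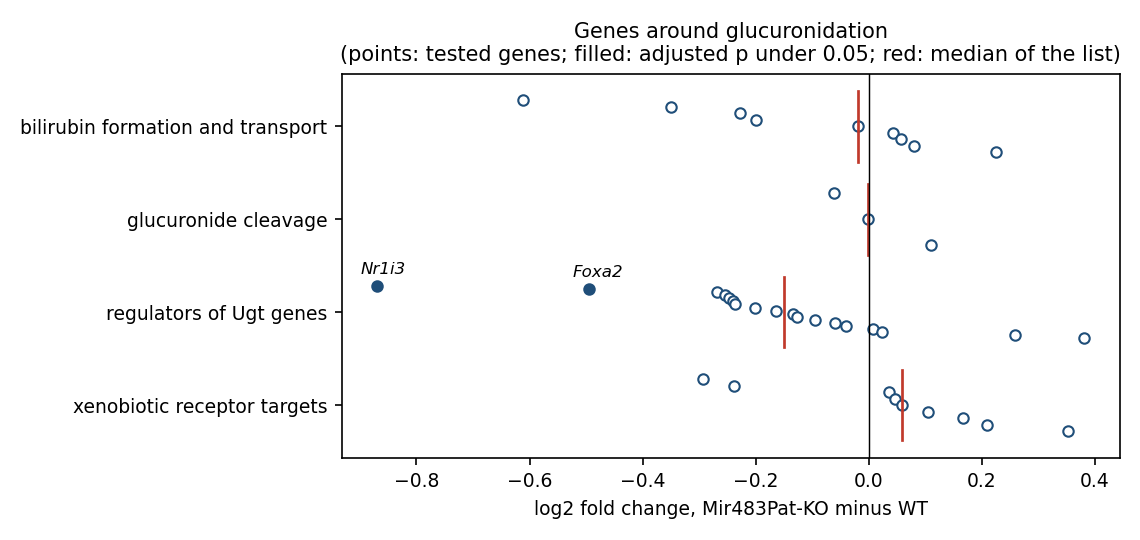
Log2 fold change (Mir483Pat-KO minus WT) of the tested genes in 4 lists around glucuronidation; each point is a gene, filled points passed an adjusted p of 0.05 and red lines are list medians. The filled points are Nr1i3 at −0.87 and Foxa2 at −0.49, both regulators of Ugt genes.

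Markers of cell types were measured beside these values. Hepatocyte markers (8 genes, 0 passed with edgeR, 2 at an unadjusted p under 0.05, and 1 passed with each of DESeq2 and limma-voom) had summed levels of 214284 to 239631 CPM in WT and 192659 to 222789 CPM in Mir483Pat-KO. Of these 8 markers 7 had a log2 fold change below 0 and 1 above, with a median of −0.13. Of 10 erythroid markers 9 had a log2 fold change above 0 and 8 had an unadjusted p under 0.05. The share of all genes at that unadjusted level is not given, so nothing is read from such counts in any list. With DESeq2 4 erythroid markers passed and with limma-voom 2. With edgeR 2 passed higher, where 2.43% of all genes tested did. Among the 2 was Hbb-bs (log2 fold change 0.54, edgeR adjusted p = 0.0120), and the sum of the 10 ran from 16007 to 20644 CPM in WT and from 18740 to 26661 CPM in Mir483Pat-KO. Haemoglobin took 1.33% ± 0.168 of counts in WT and 1.88% ± 0.342 in Mir483Pat-KO. Of 7 macrophage markers 4 had a log2 fold change below 0 and 3 above, and 2 passed lower, where 2.76% of all genes tested did (sums 517 to 643 and 453 to 579 CPM). Of 7 intestine markers 5 were tested, all with a log2 fold change below 0 (median −0.52). Of these 5, 2 passed lower, against the same 2.76% (sums 161 to 238 and 118 to 154 CPM). The defining intestinal factors Cdx1 and Cdx2 had 0 counts. With edgeR, DESeq2 or limma-voom 0 passed among 5 endothelial (388 to 441 and 338 to 422 CPM) and 5 bile duct markers (41.6 to 95.8 and 57.2 to 86.0 CPM), nor did the 1 of 6 kidney markers that was tested (1.33 to 8.51 and 1.75 to 2.81 CPM). Of these 11 tested genes 1, an endothelial marker, had an unadjusted p under 0.05 (edgeR). Ugt1a1 is also transcribed in intestine, and the part of these cell types in the UGT values was not tested.

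Within groups, libraries differed in their UGTs in ways that were partly shared. Deviations of log2 CPM from the group mean were correlated between members over the 10 libraries, given as a description, as all pairs share the same libraries and scaling. Of 28 pairs of the 8 tested members 8 had a Pearson correlation above 0.5 and 2 below −0.5, with a median of 0.36. The highest were seen for Ugt1a6a with Ugt2b35 (0.83), Ugt1a6a with Ugt2b34 (0.77) and Ugt2b5 with Ugt2b34 (0.76). Ugt1a1 correlated with Ugt2b1 at 0.62 and Ugt1a6a at 0.54, with Ugt2b34 at 0.052 and with Ugt2b36 at −0.52. With 1 library left out these values ran from 0.52 to 0.80, from 0.40 to 0.65, from −0.12 to 0.54 (the highest without WT replicate 2) and from −0.61 to −0.39.

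Among 12491 genes averaging at least 1 on the log2 CPM scale, the 5 whose deviations were most like those of Ugt1a1 were Dtx3l (Pearson correlation 0.988 over 10 libraries), Cyp3a41a (0.986), Smad1 (0.947), Itga9 (0.945) and C8a (0.934). Cyp3a41a, a cytochrome P450, stood at 3.97 CPM ± 1.39 (WT) and 1.39 CPM ± 0.879 (Mir483Pat-KO, SD, n = 5, log2 fold change −1.51, edgeR adjusted p = 0.0220). Dtx3l also passed (−0.44, adjusted p = 0.0219), whereas Smad1 (0.14, adjusted p = 0.403), Itga9 (−0.15, adjusted p = 0.385) and C8a (−0.045, adjusted p = 0.740) did not. The 5 were picked from many genes for their likeness, which is therefore no evidence of a relation.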

How the data were processed

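Whole-liver polyA RNA of 10 female fetuses was sequenced by the authors as paired ends from libraries that mark strand. They aligned reads to GRCm38 and counted them per gene with STAR, and deposited the counts of each Ensembl gene unscaled. The strand setting and the rule for reads that fall in several genes are not given in the sources used here. Groups came from the sample labels. Of 55401 genes, 55141 matched a symbol. Members and lists were chosen with earlier results of these data known, and topics therefore are not independent of them.

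Counts were fitted in R 4.3.3 with edgeR 4.0.16 (filterByExpr with default settings, TMM scaling, quasi-likelihood F-test, no covariates), with Benjamini-Hochberg adjustment over 14098 genes. Passed means an adjusted p under 0.05, and called adds a fold change over 1.5. The text names all members, other Ugt genes reaching 1 CPM, the 3 genes of smallest p of each list, and the 5 genes most like Ugt1a1. Some genes that this rule names are not reported here. Log2 values for correlations used a prior count of 2. The floor of a count of 0 is 3 counts and covers counting error only. Depth was 10831350 to 14765880 counts per library. Annotation of lengths, exons and 3′ UTRs was that of GENCODE for GRCm38, windows were 50 bases long, and coding sequences were aligned globally with Biopython 1.88. Pairing by replicate number was checked with the correlation of deviations across genes, which had a mean of 0.0871 for equal and −0.0217 for unequal numbers, and replicates were not paired. Alternatives were RLE scaling, DESeq2 1.42.0, limma-voom (limma 3.58.1), other count filters, a replicate block, the identification number range as covariate or its lower part alone, each library left out, glmTreat, GC content and length offsets, library-total CPM, all exonic bases and a prior count of 0.5. The fit was tested on simulated data with known changes.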

Additional observations from a re-analysis of the deposited data

Results flagged for a closer look

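In groups of 5 libraries, the highest or lowest value was compared with the rest by its gap over the range of the group. Of 60 groups checked (30 genes, WT and Mir483Pat-KO apart) 2 held a value set apart, and chance alone sets apart about 1 group in 20. Ugt3a2 in WT replicate 1 stood at 12.3 CPM, against 4.08 CPM in the next one. Ugt8a in WT replicate 2 stood at 1.34 CPM, where the next highest had 0.775 CPM, and these values rest on 7 to 16 counts per WT library. No member was set apart in either group.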

How the results depend on the processing

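Ugt1a1 kept its direction under all alternatives and failed to pass under 2, the lower identification number range alone (−1.24) and a test against a fold change of 1.5 (glmTreat). Without 1 library each it ran from −1.82 to −1.41 and passed throughout. The Ugt1a sum likewise failed to pass at −0.93 in the lower range and at −1.06 under glmTreat, and ran from −1.22 to −0.94 without 1 library. The number of members passing lower (1) was 0 in the lower range and under glmTreat and 2 with GC content and length offsets, and stayed 1 whichever library was left out. The number passing higher (1) was 0 under those 3 settings and 0 to 1 without 1 library, where it was 0 without WT replicate 5 and Mir483Pat-KO replicates 2 and 4. Differences between 1 setting and another are given as measured, and the cause was not tested.

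Genes passing lower (4) and higher (0) over all lists except members and cell type markers were 8 and 1 with DESeq2, 9 and 4 without the count filter, 8 and 1 with the range as a covariate, and 7 and 1 with the offsets. They were 0 lower in the lower range and under glmTreat, and 1 higher with at least 10 counts in every library. Without 1 library they ran from 2 to 6 lower and from 0 to 3 higher, the 2 without Mir483Pat-KO replicate 4 and the 3 without WT replicate 2. Genes called over the whole table (123 lower, 50 higher) numbered 222 and 99 without the count filter, where 28428 genes were tested, 19 and 2 in the lower range, and 4 and 0 under glmTreat, with 107 higher for the range covariate and 28 higher for the offsets. Without 1 library they ran from 80 to 171 lower and from 17 to 66 higher, the lowest of both without Mir483Pat-KO replicate 4, with 26, 28 and 24 higher without WT replicate 5 and Mir483Pat-KO replicates 2 and 3.

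With the replicate number as a block, 8 genes of the same lists passed lower and 3 higher, with Ugt1a1 at −1.60, and members passing stayed at 1 in each direction. Only 2 of 5 same-numbered pairs correlated above 0.1, so equal numbers are no pairing.

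Some differences that were small in the fit of all libraries changed sign. With the range covariate these were Ugt2b1 (0.068), Ugt2b5 (0.079), Ugt2a3 (−0.042) and Gusb (0.0014), in the lower range Ugt2b5 (0.017), Ugt3a2 (−0.13) and Ces1e (0.097), without the count filter Gusb (0.00061), and with the offsets Ugt2b34 (−0.0024), Ugt2b35 (−0.18), Ugt2a3 (−0.12), Ugt3a2 (−0.093) and Gusb (0.050). Without 1 library, Ugt2b1 ran from −0.17 to 0.074, Ugt2b5 from −0.11 to 0.022, Ugt2b35 from −0.0072 to 0.098, Ugt2a3 from −0.11 to 0.15, Ugt3a2 from −0.12 to 0.65 (where it passed without WT replicate 1), Ces1e from −0.21 to 0.071 and Gusb from −0.044 to 0.018. Scaling by library total moved no mean of a member beyond its SD. Genes under about 5 CPM (Ugt1a6a, Ugt2b1, Ugt2a3) had SEs of 0.20 to 0.25 on the log2 scale, so only larger differences could be seen in them.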

Other observations

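Slco1a1, an organic anion carrier of the bilirubin transport list that was named here after its values were seen, lay below the count filter and was not tested. Levels were 0.990 CPM ± 0.416 for WT and 0.308 CPM ± 0.152 for Mir483Pat-KO (SD, n = 5), with all Mir483Pat-KO libraries below all WT libraries. That separation rests on the scaling, since Mir483Pat-KO replicate 3 (0.536 CPM) and WT replicate 4 (0.539 CPM) both had 7 counts. Among genes tested, 3.26% were separated in that direction. Without the filter on low counts Slco1a1 passed (log2 fold change −1.63, edgeR adjusted p = 0.0165), as did Ugt3a1 at 2.29 (adjusted p = 0.0133). Counts of Ugt2b36 per 100 counts of Ugt2b34, a ratio within a library, were 6.16 ± 0.624 in WT and 8.21 ± 1.81 in Mir483Pat-KO, and in Mir483Pat-KO replicate 3 the ratio of 5.49 lay within the WT range.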
